A study of Caenorhabditis elegans with 10 samples.

Results

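The insulin-like peptide genes of Caenorhabditis elegans were taken as every gene whose WormBase symbol is ins- followed by a number, together with daf-28. The rule found 39 genes among the 46907 genes to which the deposited transcript counts were assigned. RNA-seq libraries had been made from total RNA of whole animals of 5 strains, with 2 libraries per strain and 10 in all. The stated purpose was to compare the mRNA level of the kinesin gene unc-104 between wild type, an unc-104 mutant and suppressed mutants.

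The groups were wild type (WT), unc-104(R9Q), unc-104(R9QT102I), unc-104(R9QG265R) and unc-104(R9Q);unc-16, all untreated. The mutants are called R9Q, R9Q T102I, R9Q G265R and R9Q unc-16 here. Every strain but WT carried the R9Q change, so R9Q is the control of each suppressed strain, and its 2 libraries enter all 4 comparisons. The unc-104 changes replace amino acids and the unc-16 allele is not named in the labels, so counts per gene cannot check the genotypes. Age and stage of the animals, and whether the 2 libraries of a strain came from separate cultures, are not given in the sources used here. The p-values therefore measure the spread between these libraries, which may be technical.

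Insulin-like peptides are small secreted proteins, many of them made in neurons and others in intestine or epidermis. In neurons they are packed into dense-core vesicles, which UNC-104 moves along axons together with synaptic vesicle precursors. They act on the insulin receptor homolog DAF-2, some as agonists and some as antagonists. DAF-2 signals through the kinases AGE-1, AKT-1 and AKT-2 to keep the FOXO transcription factor DAF-16 out of the nucleus, and the balance sets larval arrest as a dauer, lifespan and several forms of learning. UNC-16 is a scaffold protein that binds kinesin and JNK pathway kinases. The values below are levels of mRNA in whole animals, in which fewer cells of a type and less RNA per cell cannot be told apart, and they say nothing of peptide transport or release.

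Between 6239272 and 7160785 reads per library were assigned to a transcript, and the members together received 2166 to 4600 of them. Levels are given as CPM, counts scaled to the library total with TMM factors. Where a library showed no count, as many as 3 (0.387 to 0.503 CPM) were possible, a limit that covers counting error only. The libraries differed in ways the strains do not account for. Transcripts of the mitochondrial genome made up 0.0194 to 0.0238% of counts in 3 libraries (R9Q T102I replicate 1, R9Q G265R replicate 2 and R9Q unc-16 replicate 2) and 1.58 to 5.51% in the other 7. Replicates were close in WT and R9Q and far apart in the suppressed strains: 3.47% and 2.64% of the 12267 genes tested differed over 2-fold between the replicates of WT and of R9Q, against 18.8%, 33.3% and 35.8% in R9Q T102I, R9Q G265R and R9Q unc-16. These shares were taken with 0.5 CPM added to each level, which shrinks the ratios of genes near the floor. By the same measure, ins-33 alone of the members tested differed over 2-fold between the WT libraries and 3 of 25 did so in R9Q (ins-21, ins-23 and ins-32, each at 21 counts or fewer), against 8, 13 and 16 in the suppressed strains. Some markers of neurons, intestine, muscle and germline were detected in every library, as the label of whole animal requires. Others of these lists were at 0 throughout, namely act-5, vit-2, unc-10, egl-3, unc-15, unc-22, pgl-1, him-3, rme-2 and nos-2.

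A count of 0 in these tables is not always a measure of level. A read lying in more than 1 annotated transcript was set aside as ambiguous, also where all of those transcripts belonged to the same gene, and this took 57.7 to 61.8% of aligned reads. Most insulin-like peptide genes are short and have 1 transcript in the deposited tables, so they are counted over their whole length. In 6 members no read was counted in any library, namely ins-7, ins-8, ins-13, ins-17, ins-18 and ins-36. Of these, ins-7, ins-8, ins-17, ins-18 and ins-36 had 2 or 3 transcripts in the tables. In ins-7, an agonist made in intestine and neurons, 79 of 422 exon bases (18.7%) belonged to 1 transcript alone. In ins-8 the share was 24.3%, and in ins-36 it was 52.4%. The exons of every listed transcript were not known for ins-18, an antagonist of DAF-2, or for ins-17. Only ins-13 had 1 transcript, of which 71.8% lay outside the overlapping gene acdh-2. The zeros of the 5 genes with several transcripts therefore give no level for these genes.

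A further 8 members were too low to compare, since they did not reach the count filter (a minimum of about 10 counts in at least 2 libraries). ins-9 received 2 counts in all 10 libraries together and ins-19 received 4. ins-31 received 18 counts, ins-37 received 32, ins-2 received 43 and ins-15 received 44. ins-20 and ins-34 received 59 counts each. No library held more than 12 counts of any of these 8 genes. The remaining 25 members (64.1%) were tested. A gene at the floor in some strains could pass only through the libraries in which it was high, so the 25 do not stand for the whole family. Of the 25, ins-16, ins-21, ins-23, ins-32 and ins-39 had a mean under 2 CPM, and 17 had at least 10 counts in every library.

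**Figure D1:**
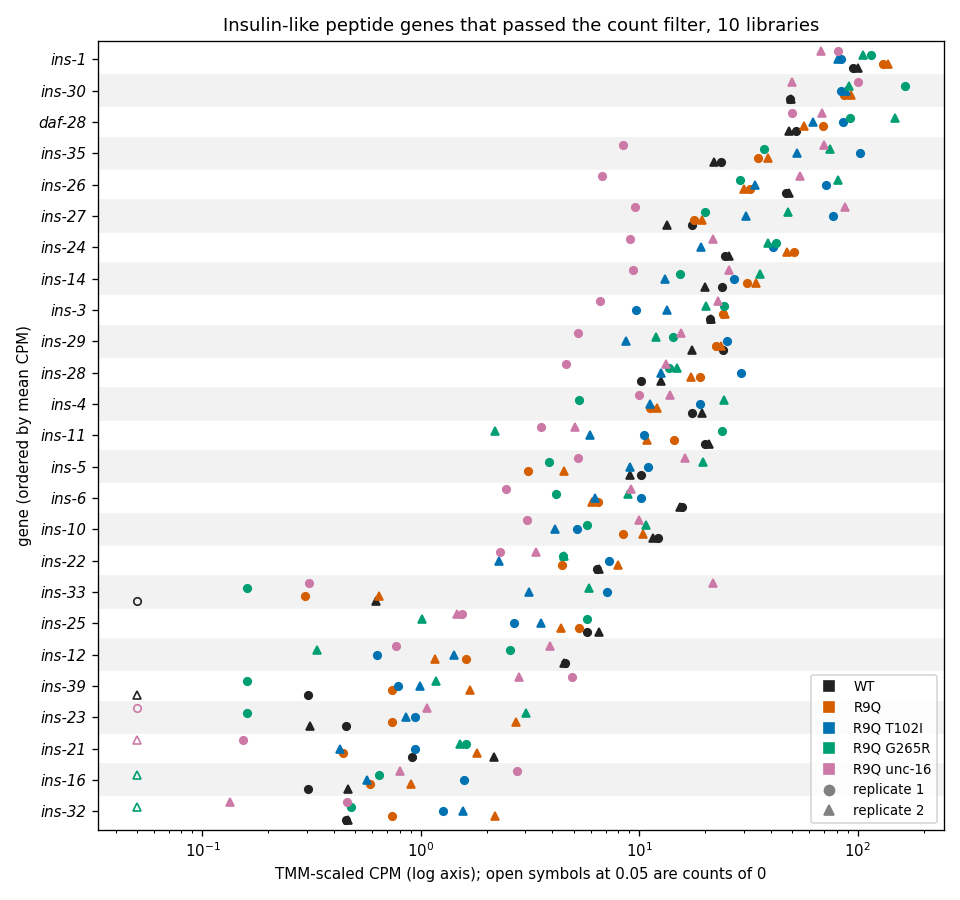
Levels of the 25 insulin-like peptide genes that passed the count filter, in TMM-scaled CPM on a log axis, with genes ordered by their mean over the 10 libraries; colours are strains, circles and triangles are replicates 1 and 2, and open symbols mark counts of 0. The symbols of WT and R9Q lie in close pairs for the higher genes, while those of the suppressed strains often lie far apart, as for ins-35 at 8.45 and 70 CPM in R9Q unc-16.

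The members differed in level by more than any of them differed between strains, by strain means. Per kilobase of countable exon, the highest in WT were ins-1 at 121 CPM per kb, ins-26 at 103 and ins-14 at 74.4. ins-30 followed at 72.7 CPM per kb and daf-28 at 66.8. At the other end, ins-39 stood at 0.249 CPM per kb in WT and ins-33 at 0.596. In R9Q the highest were ins-1 at 167 CPM per kb, ins-30 at 133 and ins-14 at 110. In R9Q T102I the means of ins-35, 203 CPM per kb, and ins-27, 174, were the highest, but the libraries differed. ins-35 was at 268 and 138 CPM per kb in them and ins-27 at 248 and 99.1, so that in replicate 2 ins-27 lay under ins-30 at 131 and ins-1 at 101.

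Summed over all members, the level was 487 and 480 CPM in WT and 579 and 593 CPM in R9Q. It was 718 and 471 CPM in R9Q T102I, 630 and 757 CPM in R9Q G265R, and 333 and 590 CPM in R9Q unc-16. Both R9Q libraries lay above both WT libraries, and the suppressed strains overlapped with R9Q except R9Q G265R, whose libraries were both higher. The 3 genes with the highest mean, ins-1, ins-30 and daf-28, made up 40.2 and 41.2% of the sum in WT and 49.4 and 48.4% in R9Q. Their share ranged from 31.5% to 69.6% between the 2 libraries of R9Q unc-16. ins-1 was the highest member by CPM in all 4 WT and R9Q libraries. In the suppressed strains the highest was ins-30 in 3 libraries, and ins-35, daf-28 or ins-27 in 1 library each.

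For R9Q against WT, levels of 21 of the 25 members did not overlap between the strains, 13 higher in R9Q and 8 lower. The same held for 64.5% of all genes tested. No member passed the threshold in edgeR's quasi-likelihood test over all 10 libraries (Benjamini-Hochberg adjusted p under 0.05), where 0.31% of all genes did. ins-1 alone had an unadjusted p under 0.05. DESeq2, run without the count filter, also called no member and 0.8% of the 25123 genes with a count. All DESeq2 shares below are of these 25123 genes, of which 33 are members. Any gene that DESeq2's own filter left without an adjusted p counts in this total as not called. The edgeR fit of 10 libraries shares the spread of all strains, and spread differed. Fitted apart, WT and R9Q had a median biological coefficient of variation of 0.0802, the suppressed strains of 0.496. Fitted on the 4 WT and R9Q libraries alone, the edgeR test called 13 of the 20 members it could test, 7 higher and 6 lower in R9Q, against 37.7% of all genes. The median log2 change was 0.06 over those 20 members and 0.01 over all genes in that fit, and 0.27 over 25 members and 0.00 over all genes with 10 libraries.

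**Figure D2:**
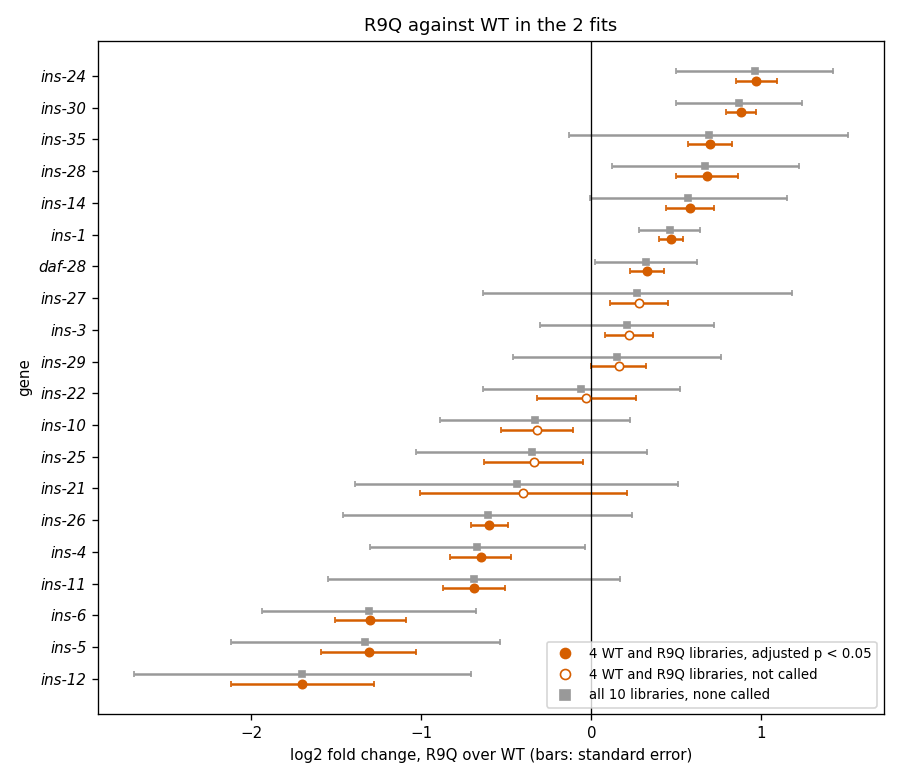
Log2 fold change of R9Q over WT for the 20 members tested in the fit of 4 libraries, with bars of 1 standard error; circles are that fit, filled where the adjusted p was under 0.05, and grey squares are the fit of all 10 libraries, in which none was called. The estimates nearly coincide and the bars of the 10-library fit are wider for every gene.

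Among the 7 that rose in the 4-library fit was ins-1, a neuronal peptide that acts as an antagonist of DAF-2 and is needed for salt chemotaxis learning. Its level was 95 and 99.9 CPM in WT and 131 and 138 CPM in R9Q. The log2 change was 0.47 (SE 0.07, edgeR adjusted p = 1.84e-06 in the 4-library fit and 0.55 in the 10-library fit). The lowest R9Q library stood well above the highest WT library. daf-28, an agonist made in sensory neurons that promotes reproductive growth over dauer arrest, was at 52 and 48.5 CPM in WT and at 69 and 56.6 CPM in R9Q. Its log2 change was 0.33 (SE 0.10, edgeR adjusted p = 0.0121 in the 4-library fit and 0.996 in the 10-library fit). This call was lost without WT replicate 2 (adjusted p = 0.0696) and without R9Q replicate 1 (adjusted p = 0.277).

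The other 5 that rose included 3 members of a cluster on chromosome I, of which only ins-24 and ins-30 are neighbours. ins-30 was at 48.8 and 49.4 CPM in WT and at 86.3 and 92.7 CPM in R9Q, a log2 change of 0.88 (SE 0.09, edgeR adjusted p = 1.89e-09 in the 4-library fit). ins-24 was at 24.6 and 25.6 CPM in WT and at 50.8 and 47.2 CPM in R9Q, a log2 change of 0.97 (SE 0.12, adjusted p = 8.5e-08). ins-28 was at 10.19 and 12.58 CPM in WT and at 18.9 and 17.3 CPM in R9Q, a log2 change of 0.68 (SE 0.18, adjusted p = 0.00403). In ins-30 and ins-24 the replicates lay much closer to each other than to the other strain, and in ins-28 the WT replicates were further apart. ins-14 was at 23.9 and 20 CPM in WT and at 31 and 34 CPM in R9Q, a log2 change of 0.58 (SE 0.14, adjusted p = 0.00115). ins-35, an intestinal peptide, was at 23.6 and 21.9 CPM in WT and at 34.8 and 38.7 CPM in R9Q, a log2 change of 0.70 (SE 0.13, adjusted p = 6.07e-05). In the 10-library fit the adjusted p of these 5 genes lay between 0.652 and 1.

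The 6 that fell in the 4-library fit included ins-4 and ins-6, agonists that act with daf-28 against dauer arrest. ins-6, a peptide of sensory neurons that also promotes exit from the dauer stage, was at 15.7 and 15.4 CPM in WT and at 6.46 and 6.06 CPM in R9Q. Its log2 change was -1.30 (SE 0.21, edgeR adjusted p = 1.35e-05). ins-4 was at 17.5 and 19.3 CPM in WT and at 11.2 and 12 CPM in R9Q, a log2 change of -0.65 (SE 0.18, adjusted p = 0.00413). In the 4-library fit daf-28 was thus higher and ins-4 and ins-6 were lower in R9Q. None of them was called over 10 libraries, and the daf-28 call did not hold in every refit. ins-5, which lies between ins-4 and ins-6 on chromosome II, was at 10.2 and 9.01 CPM in WT and at 3.08 and 4.51 CPM in R9Q, a log2 change of -1.31 (SE 0.28, adjusted p = 0.000392). Neither R9Q library of these 3 neighbours reached the lower WT library.

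ins-11, which acts in pathogen avoidance learning, was at 19.9 and 20.8 CPM in WT and at 14.4 and 10.8 CPM in R9Q. Its log2 change was -0.69 (SE 0.18, edgeR adjusted p = 0.00258), and the call was lost without R9Q replicate 2 (adjusted p = 0.072). Its neighbour ins-12 was at 4.56 and 4.5 CPM in WT and at 1.61 and 1.16 CPM in R9Q, a log2 change of -1.70 (SE 0.42, adjusted p = 0.00184). ins-26 was at 46.7 and 48.3 CPM in WT and at 32.1 and 30 CPM in R9Q, a log2 change of -0.60 (SE 0.11, adjusted p = 6.49e-05). In all 3 genes both R9Q libraries were lower than both WT libraries. In the 10-library fit the adjusted p of the 6 lower genes lay between 0.724 and 1. Without each of the 4 libraries in turn, the log2 changes of all 13 called genes kept their direction. The calls of daf-28 and ins-11 did not hold in every refit, as given. Each refit reuses the same libraries and leaves a strain with a lone library, so it cannot show that a call would recur.

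The 4-library fit also tested 7 members that it did not call. ins-3 was at 21 and 21.3 CPM in WT and at 24.2 and 24.6 CPM in R9Q, with a log2 change of 0.22 (SE 0.14). ins-22, whose tagged peptide is a standard marker of dense-core vesicles, was at 6.39 and 6.52 CPM in WT and at 4.4 and 7.99 CPM in R9Q, with a log2 change of -0.03 (SE 0.29). Its R9Q libraries enclosed both WT values. ins-10, ins-21, ins-25, ins-27 and ins-29 had log2 changes between -0.40 and 0.28. ins-16, ins-23, ins-32, ins-33 and ins-39 passed the filter of the 10-library fit alone, with 21 counts or fewer in every WT and R9Q library. ins-39 had 2 and 0 counts in WT and 5 and 13 counts in R9Q, too few to give a firm size.

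Summed levels of several marker lists also differed between WT and R9Q. The neuron markers summed to 1337 and 1337 CPM in WT and to 1247 and 1151 CPM in R9Q, and the molting markers to 125 and 139 CPM and to 118 and 115 CPM. The intestine markers summed to 2497 and 2507 CPM in WT and to 3659 and 3627 CPM in R9Q. Their median went the other way, at 12.9 and 13.2 CPM in WT and 6.6 and 5.41 CPM in R9Q. Of the 5 intestine markers tested, 2 had a log2 change above 0 (median -0.12). The sperm markers summed to 11.4 and 13.4 CPM in WT and to 7.34 and 7.35 CPM in R9Q, and the epidermis markers, near the floor, to 1.37 and 0.621 CPM and to 2.94 and 2.58 CPM. No marker of any list passed the 10-library test in this or the other comparisons. The part of these differences in the levels of the members was not tested.

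For R9Q T102I against R9Q, levels of 12 members did not overlap, 5 higher and 7 lower, and the same held for 54.8% of all genes tested. None was called over 10 libraries, where 0.562% of all genes were, and DESeq2 called none of the members and 1.54% of genes. ins-1 alone had an unadjusted p under 0.05. The median log2 change was -0.39 over the 25 members and 0.00 over all genes. The neuron markers summed to 853 and 1047 CPM in R9Q T102I against 1247 and 1151 CPM in R9Q (median log2 change -0.40 over the 6 tested), and their part in the members' levels was not tested. In the fit of the 4 libraries of this pair, 1 of 20 members was called, against 7.29% of all genes.

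That member was ins-1, at 83.7 and 81.2 CPM in R9Q T102I against 131 and 138 CPM in R9Q. It fell by 0.73 on the log2 scale in the 4-library fit (edgeR adjusted p = 0.0341), and the 10-library fit gave -0.70 (SE 0.18, adjusted p = 0.174). Both R9Q T102I libraries were lower than both R9Q libraries and also lower than WT. ins-3 was at 9.6 and 13.4 CPM in R9Q T102I against 24.2 and 24.6 CPM in R9Q, with a log2 change of -1.09 (95% interval -2.29 to 0.12). ins-5 was at 11 and 9.1 CPM against 3.08 and 4.51 CPM in R9Q, with a log2 change of 1.40 (95% interval -0.42 to 3.22). Its R9Q T102I values lay near the 10.2 and 9.01 CPM of WT.

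For R9Q G265R against R9Q, levels of 7 members did not overlap, 2 higher and 5 lower, against 43.4% of all genes. No member was called over 10 libraries, nor was any gene at all (0% called), while 1 member and 1069 of all genes had an unadjusted p under 0.05. DESeq2 called no member and 194 genes (0.772%). The fit of the 4 libraries of this pair also called 0% of genes. The neuron markers summed to 995 and 830 CPM in R9Q G265R (median log2 change against R9Q -0.58). For other lists the median was 2.41 (molting), 6.63 (epidermis, 2 tested), -0.12 (germline), -0.10 (intestine) and -0.10 (muscle, 2 tested). The part of these lists was not tested. The member with the low unadjusted p was daf-28, at 92.4 and 148 CPM in R9Q G265R against 69 and 56.6 CPM in R9Q. Its log2 change was 0.93 (SE 0.30, edgeR adjusted p = 0.441), with a 95% interval of 0.24 to 1.63 before adjustment. Both R9Q G265R libraries were the highest of all 10 for this gene, yet they differed from each other by more than R9Q did from WT. ins-1 was at 115 and 106 CPM, lower than both R9Q libraries and higher than both WT libraries, with a log2 change against R9Q of -0.28 (95% interval -0.69 to 0.13).

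For R9Q unc-16 against R9Q, levels of 13 members did not overlap, 2 higher and 11 lower, while 52.5% of all genes did not overlap. A change over 2-fold in either direction was estimated for 14 of the 25 members and for 26.7% of all genes. The 14 include all 5 tested members with a mean under 2 CPM, and ins-33, at 2 and 5 counts in R9Q. Ratios this near the floor are not firm, so the 2 shares cannot be set against each other as they stand. The median log2 change was -0.53 over the members and -0.04 over all genes. Beside this, the neuron markers summed to 799 and 879 CPM in R9Q unc-16 against 1247 and 1151 CPM in R9Q (median log2 change -0.50). For other lists the median was 3.93 (molting), 8.96 (epidermis, 2 tested), 0.99 (germline), -0.14 (intestine) and 0.27 (muscle, 2 tested). The part of these lists was not tested. No member was called over 10 libraries, where 0.668% of all genes were, and ins-1, ins-21 and ins-24 had an unadjusted p under 0.05. DESeq2 called 2 members, ins-1 and ins-24, and 3.86% of all genes. The fit of the 4 libraries of this pair called none, and 0% of all genes, with 4 members at an unadjusted p under 0.05.

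ins-1 was at 81.4 and 67.9 CPM in R9Q unc-16 against 131 and 138 CPM in R9Q. Its log2 change was -0.85 (SE 0.18, adjusted p = 0.0777 in edgeR over 10 libraries), and DESeq2 gave -0.78 (adjusted p = 0.0265). Both values were also lower than the 95 and 99.9 CPM of WT. ins-24 was at 9.06 and 21.7 CPM against 50.8 and 47.2 CPM, with a log2 change of -1.67 (SE 0.47, edgeR adjusted p = 0.129). DESeq2 gave -1.60 for this gene (adjusted p = 0.0355). ins-21 was at 1 and 0 counts in R9Q unc-16 and at 3 and 14 counts in R9Q, which is too low for a firm ratio. ins-39 was the other way round among the low genes, with 32 and 21 counts in R9Q unc-16 and 13 or fewer in each of the other 8 libraries.

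The R9Q unc-16 libraries differed from each other for most members. ins-26 was at 6.76 and 54.1 CPM in them, ins-35 at 8.45 and 70 CPM, and ins-28 at 4.61 and 13.3 CPM. ins-30 went the other way, at 100 CPM in replicate 1 and 49.8 CPM in replicate 2. Without R9Q unc-16 replicate 2 the edgeR test called ins-3 (-1.90) and ins-24 (-2.45), and without replicate 1 it called ins-1 (-0.94), all as log2 changes against R9Q. The share of all genes called was 5.19% without replicate 2 and 3.6% without replicate 1. In these fits the lone library is assumed to vary like the other groups.

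**Figure D3:**
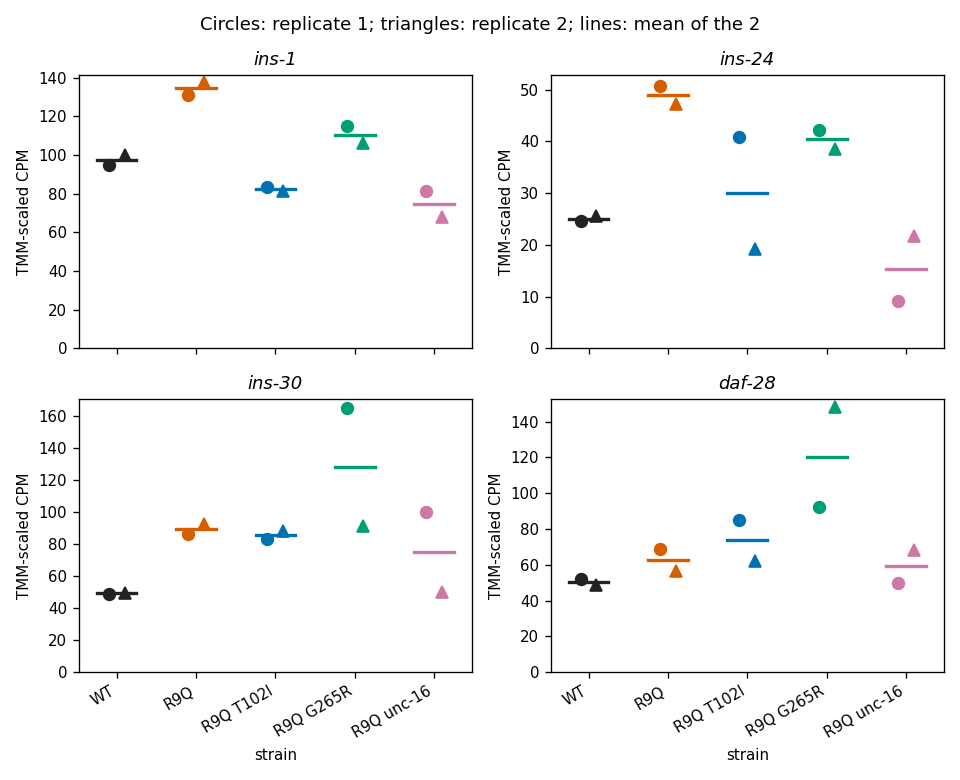
Levels of ins-1, ins-24, ins-30 and daf-28 in TMM-scaled CPM for the 5 strains; circles and triangles are replicates 1 and 2, and lines are their means. R9Q lies above WT in all 4 genes, ins-1 lies below R9Q in each suppressed strain, and daf-28 is highest in R9Q G265R at 92.4 and 148 CPM.

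Other members of middling level were likewise uneven within the suppressed strains, and none of them was called against R9Q over 10 libraries. ins-4 was at 18.9 and 11.2 CPM in R9Q T102I, 5.28 and 24.3 CPM in R9Q G265R and 9.98 and 13.8 CPM in R9Q unc-16. Its neighbour ins-5 was at 3.84 and 19.6 CPM in R9Q G265R and at 5.22 and 16.1 CPM in R9Q unc-16. ins-6 was at 10.2 and 6.26 CPM in R9Q T102I, 4.16 and 8.89 CPM in R9Q G265R and 2.46 and 9.11 CPM in R9Q unc-16. Its level stayed below the 15.7 and 15.4 CPM of WT in all 8 libraries that carry R9Q. For ins-4 and ins-5 some libraries of the suppressed strains exceeded WT.

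ins-11 was at 10.5 and 5.97 CPM in R9Q T102I, 24 and 2.18 CPM in R9Q G265R and 3.53 and 5.09 CPM in R9Q unc-16. The 2 R9Q G265R libraries thus held both the highest and the lowest level of this gene. ins-12 was at 2.56 and 0.336 CPM in that strain, the latter, from 2 counts, its lowest value. ins-25 was at 5.76 and 1.01 CPM there, and at 1.54 and 1.47 CPM in R9Q unc-16 against 5.28 and 4.38 CPM in R9Q. Its log2 change in R9Q unc-16 was -1.67 (95% interval -3.35 to 0.01).

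ins-14 was at 27.1 and 13.1 CPM in R9Q T102I, 15.4 and 35.7 CPM in R9Q G265R and 9.37 and 25.6 CPM in R9Q unc-16. ins-29 was at 25.3 and 8.67 CPM, 14.2 and 11.9 CPM and 5.22 and 15.5 CPM in the same strains, against 22.5 and 23.7 CPM in R9Q. Both genes lay under R9Q in each R9Q unc-16 library. ins-22 was at 7.24 and 2.27 CPM in R9Q T102I, 4.48 and 4.53 CPM in R9Q G265R and 2.3 and 3.35 CPM in R9Q unc-16. ins-10 was at 5.19 and 4.12 CPM, 5.76 and 10.7 CPM and 3.07 and 9.91 CPM, in part of a gene of which 81.1% of exon bases do not overlap vps-39. The low members ins-16, ins-23 and ins-32 stayed at 18 counts or fewer in every library of the suppressed strains.

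Over the 5 strains together, an F test of edgeR called none of the 25 members and 1.97% of all genes, and DESeq2 called none of the members and 6.25% of genes. At an unadjusted p under 0.05 stood ins-1 (adjusted p = 0.13), daf-28 (adjusted p = 0.176) and ins-39 (adjusted p = 0.243). For ins-1 the strains were ordered R9Q, R9Q G265R, WT, R9Q T102I and R9Q unc-16 from high to low by mean CPM, at 134 ± 5, 111 ± 6.1, 97.4 ± 3.4, 82.5 ± 1.8 and 74.6 ± 9.5 (SD, n = 2). The libraries of neighbours in this order did not overlap, except that R9Q unc-16 replicate 1, at 81.4 CPM, stood above R9Q T102I replicate 2 at 81.2 CPM. For daf-28 the order was R9Q G265R, R9Q T102I, R9Q, R9Q unc-16 and WT, at 120 ± 39, 73.7 ± 16, 62.8 ± 8.8, 59.2 ± 13 and 50.2 ± 2.5 CPM. Its libraries overlapped between all neighbours of the order but the first pair.

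A set of 3 members, picked after their values were seen, were high in the same libraries. ins-33 was at 0 and 4 counts in WT and at 2 and 5 counts in R9Q, so that it was at or near the floor in both strains. It reached 45 and 22 counts in R9Q T102I, 1 and 35 in R9Q G265R, and 2 and 162 in R9Q unc-16. ins-27 was at 17.5 and 13.4 CPM in WT and at 17.8 and 19.3 CPM in R9Q. It stood at 77 and 30.7 CPM in R9Q T102I, at 20 and 47.8 CPM in R9Q G265R, and at 9.52 and 86.9 CPM in R9Q unc-16. In ins-35 the levels were 102.5 and 52.88 CPM in R9Q T102I, 37 and 74.3 CPM in R9Q G265R, and 8.45 and 70 CPM in R9Q unc-16. In all 3 genes the 4 highest libraries were both of R9Q T102I and replicate 2 of R9Q G265R and of R9Q unc-16.

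The same 4 libraries had the highest levels of genes of the molt, the shedding of the cuticle between larval stages. The 17 molting markers, of which 10 to 14 had a count in each library and which include the nas-36 and nas-37 proteases of cuticle shedding, had a median of 16.6 to 29.7 CPM in these 4 libraries and of 0.608 to 7.37 CPM in the other 6. Their sum was 803 to 3353 CPM in the 4 and 87.6 to 261 CPM in the other 6, with mlt-11 and noah-1 at 0 in every library. Among the other 6, R9Q unc-16 replicate 1 had the highest median, 7.37 CPM, and the highest sum, 261 CPM. Yet its levels of ins-27, 9.52 CPM, and ins-35, 8.45 CPM, were the lowest of all 10 libraries. The epidermis markers, among them cuticle collagens, summed to 298 to 2137 CPM in the 4 and to 0.621 to 25.2 CPM in the other 6. These sums rest on few genes, as no more than 4 of the 8 had a count in any library. The median of the 8 was 0 to 0.201 CPM in the 4 and 0 to 0.129 CPM in the other 6. Of these 4 libraries, 3 are those with few mitochondrial transcripts. The part of molting, or of whatever lowered the mitochondrial transcripts, in the levels of ins-27, ins-33 and ins-35 was not tested.

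**Figure D4:**
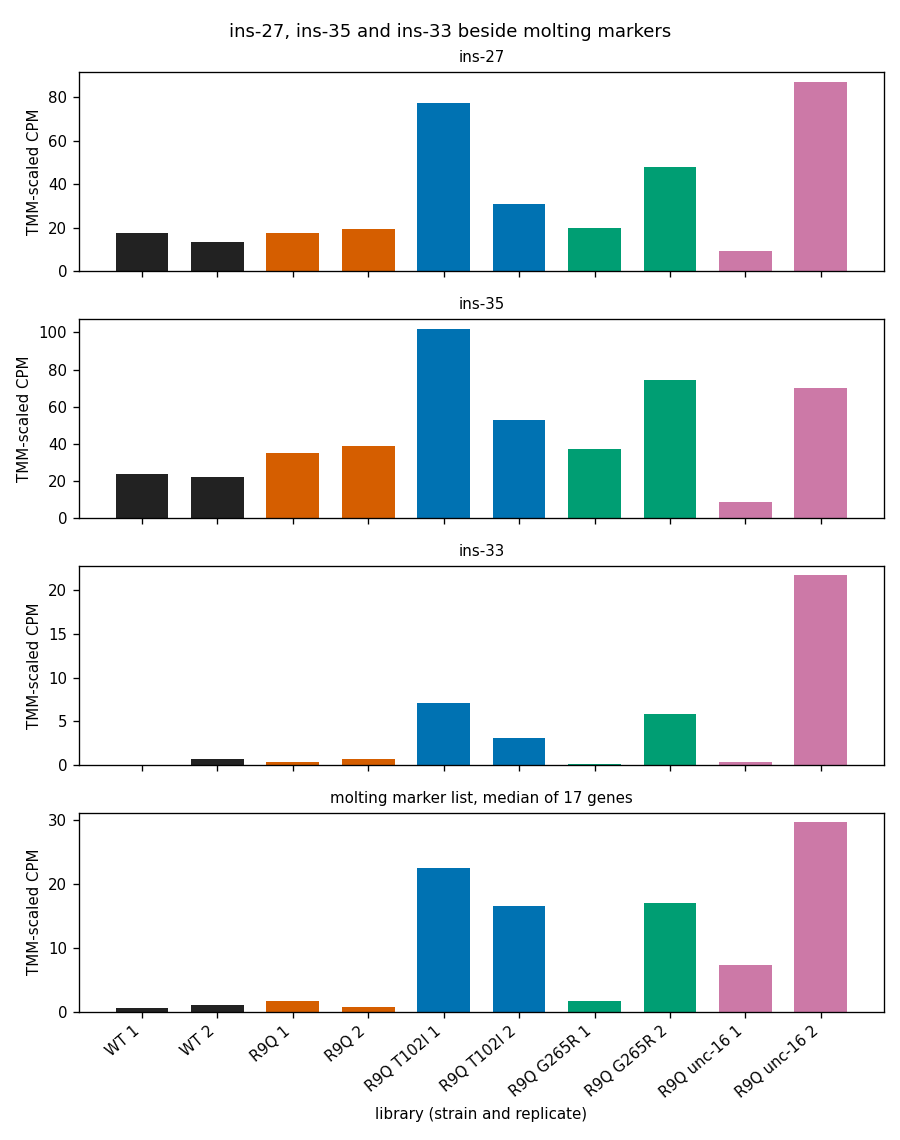
Levels of ins-27, ins-35 and ins-33 and the median of the 17 molting markers in TMM-scaled CPM, with a bar for each of the 10 libraries and an axis of its own in each panel. The molting median is 16.6 to 29.7 CPM in both R9Q T102I libraries and in replicate 2 of R9Q G265R and R9Q unc-16, the libraries in which the 3 genes are highest.

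None of these 3 genes was called in a suppressed strain against R9Q over 10 libraries with the count filter. With no count filter the edgeR test called ins-27 (adjusted p = 0.00939) and ins-33 (adjusted p = 0.00185) in R9Q T102I, where it called 3.16% of all genes, and ins-27 (adjusted p = 0.0112) and ins-33 (adjusted p = 2.61e-06) in R9Q unc-16, where it called 5.03%. With the filter, for ins-27 the log2 change of R9Q T102I against R9Q was 1.54 (SE 0.92, edgeR adjusted p = 0.633), for ins-35 it was 1.08 (SE 0.82, adjusted p = 0.738) and for ins-33 it was 3.37 (SE 1.99, adjusted p = 0.626). Without R9Q T102I replicate 1 the changes of ins-27 and ins-35 were 0.69 and 0.49, and without replicate 2 they were 2.05 and 1.48. For ins-33 the change in R9Q unc-16 against R9Q was 4.49 (SE 2.03, adjusted p = 0.283), and without R9Q unc-16 replicate 2 it was -0.61.

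Many members lie in clusters, and these were described by position in the WBcel235 annotation. With gaps of at most 10 kb, 25 of the 39 members fell into 7 clusters. The largest, on chromosome I from 14012369 to 14037777, holds ins-28, ins-29, ins-25, ins-27, ins-24, ins-30 and ins-26 within 25.4 kb, and all 7 were tested. Neighbours in it did not move alike from WT to R9Q: ins-24 and ins-30 rose in the 4-library fit while ins-26, next to ins-30, fell. In the cluster on chromosome II from 5988524 to 6011321, ins-4, ins-5 and ins-6 fell and ins-3 was not called, while ins-2 and ins-20 were too low. ins-11 and ins-12, which both fell, lie with ins-13 on chromosome II from 5544512 to 5557173. ins-21, ins-22 and ins-23 lie on chromosome III from 10023752 to 10028697, and none of them was called in R9Q against WT over 10 libraries. The 4-library fit did not call ins-21 or ins-22 and did not test ins-23.

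The receptor and its kinases could hardly be read in these tables. daf-2 received 65 counts over all 10 libraries and no more than 13 in any, and akt-2 received 19. age-1, aap-1, pdk-1 and akt-1 were at 0 counts. Of 16 genes listed for insulin signalling 6 were tested, namely daf-16, daf-18, ddl-1, hcf-1, ist-1 and pptr-1, and none was called in any of the 4 comparisons over 10 libraries. In the 4-library fit of R9Q against WT, 2 of the 6 were called, against 37.7% of all genes: hcf-1, a regulator of DAF-16, rose by 0.18 and pptr-1, a phosphatase subunit that acts on AKT-1, fell by 0.20 on the log2 scale.

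Peptide precursors are cut by proprotein convertases on the way to the dense-core vesicle. The convertase egl-3 and the carboxypeptidase egl-21 were at 0 counts, and 6 of the 12 listed genes were tested. None was called over 10 libraries. In the 4-library fit of R9Q against WT, which called 37.7% of all genes, 4 rose and 1 fell. On the log2 scale sbt-1, the chaperone of the convertase EGL-3, rose by 0.39, ida-1, a dense-core vesicle membrane protein, by 0.35, ric-19, which acts in vesicle maturation, by 0.47, and asna-1, which promotes insulin secretion, by 0.29. The convertase gene aex-5 fell by 0.52.

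Genes listed as targets of DAF-16 moved in both directions. The list was not split into genes that DAF-16 raises and lowers, so the directions give no reading of its activity. Over 10 libraries, 1 of the 10 tested of 18 listed was called in any comparison: fat-7, a fatty acid desaturase, was at 47.4 ± 0.87 CPM in R9Q T102I and at 2.6 ± 0.15 CPM in R9Q (SD, n = 2). Its log2 change was 4.18 (SE 0.50, edgeR adjusted p = 0.0183). In the 4-library fit of R9Q against WT, with 37.7% of all genes called, 5 targets rose and 4 fell. The genes dod-17, dod-24 and mdl-1 rose by 2.15, 1.53 and 0.95 on the log2 scale, and dod-3 and nnt-1 fell by 0.83 and 0.17. sod-3, a superoxide dismutase that DAF-16 activates, rose by 0.79 and hsp-12.6, a small heat shock gene, by 1.73 on the log2 scale, while fat-7 fell by 3.02 and lys-7, a lysozyme gene, fell by 0.26. Of 12 genes of other dauer inputs 5 were tested. In the 4-library fit 3 of them were called, again beside 37.7% of all genes: daf-7, the TGF-beta ligand of the ASI neurons, rose by 0.18, tax-4, a channel subunit of sensory neurons, rose by 0.71, and daf-5 fell by 0.21, while none was called over 10 libraries.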

How the data were processed

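The authors deposited raw counts of reads per annotated transcript for each of the 10 libraries, in tables of 61451 transcripts and 5 summary entries for reads not assigned. The submitters' processing notes name Trim Galore 0.4.4, STAR 2.5.4b, HTSeq 0.9.1 and the build ce11. The library kit was KAPA RNA HyperPrep, per the labels' protocols. The sources used here give neither the strand setting nor the annotation release.

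Transcripts were matched to WBcel235 genes (56781 by identifier, 4581 by name, and 89 unmatched names with 0.0486% of counts) and summed per gene. The summary entries were left out. Library scaling used TMM (factors 0.899 to 1.095), and filterByExpr with a minimum count of 10 kept 12267 genes. Tests were edgeR 4.0.16 quasi-likelihood fits in R 4.3.3 on all 10 libraries with a term per strain (5 residual degrees of freedom), adjusted by Benjamini-Hochberg over all genes tested, with a threshold of 0.05. The fit on the 4 libraries of a pair (2 residual degrees of freedom), DESeq2 1.42.0 and other settings were alternatives. Standard errors were worked back from the test statistic. Scripts were tested on simulated data. Every member was named, and of the other lists the genes called in a fit given here and some others. The members, lists and alternatives were chosen with earlier results of these data known. No sequence is shown.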

Additional observations from a re-analysis of the deposited data

How the results depend on the processing

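No member was called in the 4 comparisons or over the 5 strains with DESeq2 size factors, the stricter filter or a replicate block; other settings called some. The counts below give all genes first and members second, in the order R9Q against WT, R9Q T102I, R9Q G265R and R9Q unc-16 against R9Q, and the 5 strains. With 38, 69, 0, 82 and 242 genes called at first, no count filter gave 322, 795, 460, 1263 and 2184 genes, and 0, 2, 0, 3 and 8 members. DESeq2 gave 201, 388, 194, 971 and 1570 genes, with 2 members in R9Q unc-16. The stricter filter (5 CPM in 4 libraries) gave 58 genes in R9Q against WT and 136 in R9Q unc-16. A term for the 3 libraries with few mitochondrial transcripts gave 225, 493, 126, 1535 and 1851 genes, and 0, 1, 0, 4 and 6 members. Leaving those 3 libraries out gave 4223, 4676, 4399, 6562 and 9290 genes, and 14, 13, 7, 17 and 22 members, with each suppressed strain a lone library assumed to vary like WT and R9Q. The 14 members in R9Q against WT included the 13 of the 4-library fit.

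The fit on the 4 libraries compared gave 4158 genes and 13 members in R9Q against WT, 820 genes and 1 member in R9Q T102I, and 0 genes in R9Q unc-16. Leaving out each library of the 10 in turn gave 0 to 97, 0 to 266, 0 to 13, 0 to 681 and 14 to 766 genes, and 0 to 2 members in R9Q unc-16 and 0 in the others. Leaving out each library of the 4-library fit of R9Q against WT, a setting added after seeing the data, gave 3649, 3504, 3612 and 3473 genes and 13, 12, 16 and 12 members (without WT replicates 1 and 2 and R9Q replicates 1 and 2); the 16 included ins-23, ins-32, ins-34 and ins-39.

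With the replicate block, 3, 24 and 18 genes were called in R9Q against WT, R9Q T102I and R9Q unc-16, 101 over the 5 strains and 0 members; in the 4-library fit (an alternative also added) it gave 4280 genes and the same 13 members. Whether the numbers pair the libraries could not be settled. Deviations of same-numbered libraries correlated from -0.64 to 0.61, and from -0.03 to 0.03 in every pair with WT or R9Q. Of the 10 libraries, 4 correlated best with their own number, but the 2 deviations of a strain mirror each other and are not independent.

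The log2 change of ins-33 in R9Q unc-16 against R9Q, 4.49, turned to -0.57 without the 3 libraries with few mitochondrial transcripts and to -0.61 without R9Q unc-16 replicate 2 (the highest value was 5.50). For ins-22 in R9Q against WT the change of -0.06 ranged from -0.55 to 0.31 without each library in turn, and was 0.32 in the 4-library fit without R9Q replicate 1. The other fold changes recomputed kept their direction, and 525 of 646 recomputed values kept their side of the threshold, while 117 came to pass it. By library totals without TMM, ins-22 changed direction in R9Q against WT, ins-6, ins-11 and ins-12 in R9Q G265R, and ins-4 in R9Q unc-16. The cause of these changes was not tested. Depth limits the 8 low members and the 5 tested members under 2 CPM, and the counting of ambiguous reads limits ins-7, ins-8, ins-17, ins-18 and ins-36.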
